A study of Mus musculus with 6 samples.

Results

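The thick ascending limb is the nephron segment that reclaims salt without water, and 8 of its transport genes were followed here in the kidneys of mice homozygous for a mutation and of wild-type mice. They were Umod, Slc12a1, Kcnj1, Cldn10, Cldn16, Cldn19, Bsnd and Casr, chosen by name. A gene counted as measured where a probe of the array carried its symbol and no other, and where a gene had several probes, the one brightest on average was taken. By that rule 7 of the 8 genes were measured, out of 18048 genes with a probe of their own on the array. Slc12a1 was not analysed here, for lack of a probe annotated to that gene alone. The samples were 3 homozygous mutant mice and 3 wild-type mice, each a different animal with 1 array. In every case the tissue was a piece of kidney, 1 of 2 parts, frozen following perfusion with buffered saline, so the profile is of whole tissue and not of isolated tubules. The sources used here do not give the mutated gene, strain, age or sex, and the transcript of the mutated gene could therefore not be set against the labels.

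In this segment the apical cotransporter encoded by Slc12a1 takes up sodium, potassium and chloride from the urine, and the channel encoded by Kcnj1 lets the potassium flow back so that uptake can go on. Chloride leaves the cell on the blood side through channels that need the subunit encoded by Bsnd. The positive voltage this leaves in the lumen drives calcium and magnesium between the cells through pores of the claudins Cldn16 and Cldn19, and sodium through Cldn10. Casr, the calcium-sensing receptor, restrains this transport when blood calcium is high. Umod encodes uromodulin, which the same cells shed into the urine as its most abundant protein. In humans, loss of Slc12a1, Kcnj1 or Bsnd causes forms of Bartter syndrome, and loss of Cldn16 or Cldn19 causes magnesium wasting.

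Levels are fluorescence intensities, given as multiples of the array median, and each difference is the mutant mean less the wild-type mean in log2 units, with the standard error (SE) of the fit. A low-signal limit of 1.51 times the array median marks values close to background. Depending on the array, 37.6% to 41.7% of probes exceeded it. For 2 of the 3 Y-linked genes with a probe, the arrays of replicate 1 lay all above or all below those of replicates 2 and 3 of both genotypes. The share of all genes that split the arrays this way was not counted, and no sex is assigned from it. The number of arrays limits the precision throughout.

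None of the 7 measured thick ascending limb transport genes passed the test between genotypes. At an adjusted p under 0.05 (limma with Benjamini-Hochberg adjustment) the count was 0 of 7, where 7.26% of all 14817 genes tested passed, 5.67% higher and 1.59% lower in mutants. Over all 25834 probes tested, which include probes with no symbol or several, 5.39% passed, 4.11% higher and 1.27% lower. The share of called probes that were higher was 76.4%, falling to 61.5% when arrays were quantile normalized and to 62.9% with cyclic loess. At an unadjusted p under 0.05 there were 2, Bsnd and Cldn16, against 20.8% of all genes. Differences were positive for 4 genes and negative for 3, with a median of 0.05 log2 units, beside 0.08 over all genes tested. Among the 5 genes above the low-signal limit on all 6 arrays, the differences ran from -0.40 for Cldn10 to 0.38 for Cldn16. The widest 95% bounds among these 5 were 0.572-fold and 1.62-fold, so a halving or a doubling lay outside the interval of each. In bulk kidney RNA, fewer cells of a type and less RNA per cell cannot be told apart.

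**Figure D1:**
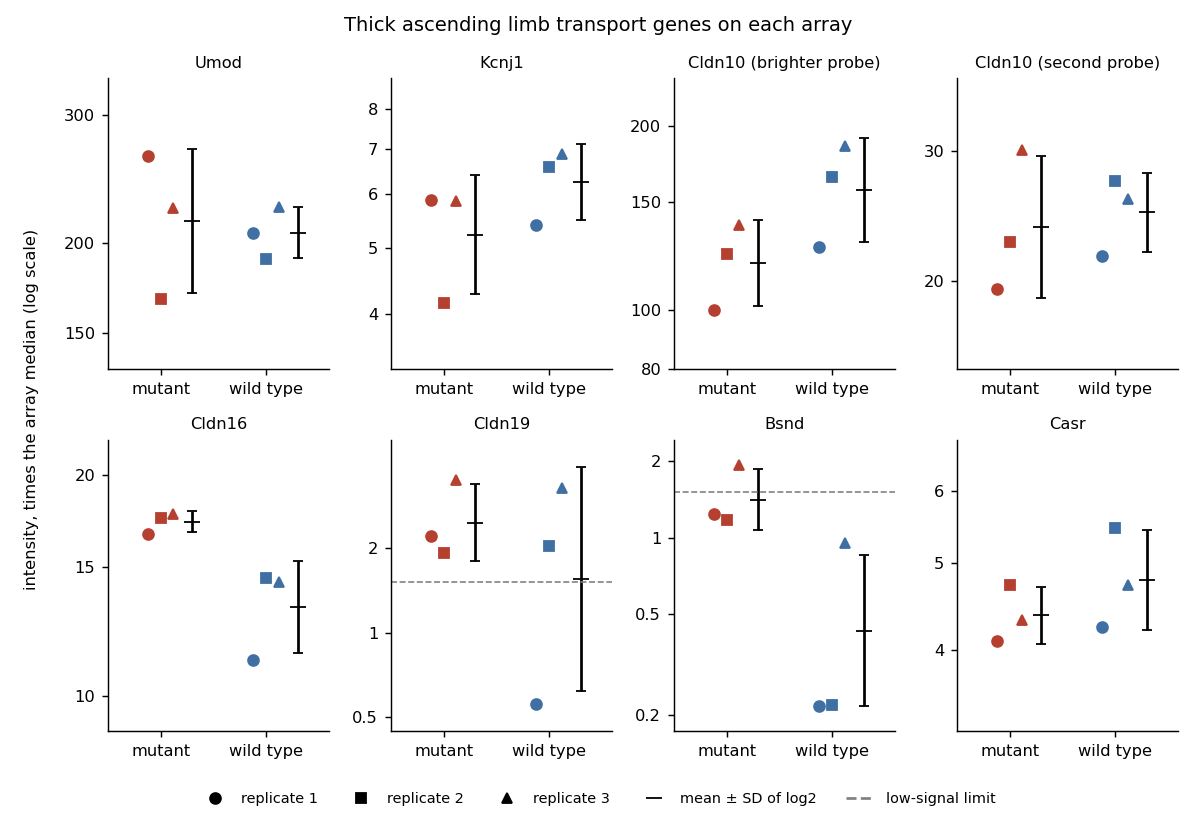
Intensity of the 7 measured genes on every array, in multiples of the array median on a log scale, with homozygous mutants left of wild type, both probes of Cldn10, and the mean ± SD of the log2 values (n = 3 each, values under the floor of 0.290 set to it) beside the points. The 3 mutant arrays lie above the 3 wild-type arrays for Cldn16 and for Bsnd, whose points lie mostly under the dashed low-signal limit, and the genotypes overlap for the other genes.

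Umod lies on chromosome 7 (119462708 to 119479262, GRCm38.p6). Its probe gave 263, 167 and 223 times the array median in mutant replicates 1, 2 and 3, against 206, 190 and 224 in wild-type replicates 1, 2 and 3. The highest and the lowest of these values were both from mutants, so the mutant values spanned the wild-type ones. The means were 7.74 ± 0.33 log2 in mutant kidneys and 7.69 ± 0.12 log2 in wild-type kidneys (SD, n = 3 each), a difference of 0.05 ± 0.20 (SE; limma, adjusted p = 0.932). The sign of so small a difference was not stable, and it was -0.094 without mutant replicate 1, which held the highest value, and -0.0039 without wild-type replicate 2. The 95% interval ran from 0.769-fold to 1.40-fold.

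Kcnj1, on chromosome 9 (32372418 to 32399197), encodes the apical potassium channel, which distal tubule and collecting duct cells also make. It gave 5.88, 4.15 and 5.86 times the array median in mutants, against 5.41, 6.57 and 6.87 in wild type. Mutant replicate 2 was the lowest array, while the other mutants lay between the wild-type values. The difference of -0.26 ± 0.20 log2 units did not pass (limma, adjusted p = 0.575), with a 95% interval from 0.625-fold to 1.12-fold.

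Bsnd, the chloride channel subunit, lies on chromosome 4 (106483456 to 106492243) and was close to background. Its values were 1.24, 1.17 and 1.94 times the array median in mutants, against 0.217, 0.220 and 0.953 in wild type. All mutant values were above all wild-type values, but 1 mutant array and 0 wild-type arrays exceeded the low-signal limit. Both means lay below the limit, and wild-type replicates 1 and 2 lay below the floor set before the fit. The fitted difference therefore depended on the handling of low values, as given at the end, and is not read as a size. It did not pass (limma, adjusted p = 0.111), although without wild-type replicate 3, the brightest of its group, it did (adjusted p = 0.0357), against 0.0616 to 0.303 in the other alternatives that could test it.

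Of the 3 claudins none passed. Cldn16, on chromosome 16 (26463135 to 26482765), gave 16.7, 17.5 and 17.7 times the array median in mutants, against 11.2, 14.5 and 14.3 in wild type. The groups did not overlap, and the mutant values were close together. The means were 4.11 ± 0.05 log2 in mutant kidneys and 3.73 ± 0.21 log2 in wild-type kidneys (SD, n = 3 each). The difference of 0.38 ± 0.14, or 1.31-fold with a 95% interval from 1.05-fold to 1.62-fold, did not pass after adjustment (limma, adjusted p = 0.172). Of the 7 genes, 2 had groups that did not overlap, Cldn16 and Bsnd, in both cases with every mutant higher. Of the 13470 genes measured on all 6 arrays 26.7% did not overlap, 17.8% with every mutant higher.

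Cldn19, the partner of Cldn16 in the magnesium and calcium pore, lies on chromosome 4 (119255441 to 119262438). It gave 2.21, 1.92 and 3.50 times the array median in mutants, against 0.559, 2.04 and 3.26 in wild type. Only wild-type replicate 1 fell below the low-signal limit, and the other wild-type values lay within the mutant range. The difference was 0.67 ± 0.52 log2 units (limma, adjusted p = 0.589), and -0.069 without wild-type replicate 1.

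Cldn10, which forms sodium pores, lies on chromosome 14 (118787871 to 118874525) and was the 1 gene with 2 probes. Alternative first exons of this gene give isoforms, of which one predominates in the thick ascending limb and another in the proximal tubule. The sources used here do not say which isoform each probe detects. The brighter probe gave 99.999, 124 and 138 times the array median in mutants, against 127, 165 and 186 in wild type. Mutant replicates 1 and 2 lay below all wild-type arrays, and mutant replicate 3 lay above wild-type replicate 1. The difference was -0.40 ± 0.19 log2 units, or 1.32-fold lower in mutants (limma, adjusted p = 0.313). The second probe gave 19.5, 22.6 and 30.1 in mutants, against 21.6, 27.3 and 25.8 in wild type. These values overlapped throughout, with a difference of -0.07 ± 0.17 (limma, adjusted p = 0.894). The log2 ratio of the brighter to the second probe within an array was 2.34 ± 0.13 in mutants and 2.67 ± 0.16 in wild type (SD, n = 3 each). The ratio was lower on every mutant array than on any wild-type array, by 0.33 on average, with an exact two-sided permutation p of 0.1, the smallest that 3 against 3 allows. Among 607 genes with a pair of probes above the low-signal limit on all arrays, 20.3% also had ratios that did not overlap between genotypes, and 27.8% had a ratio difference at least as large.

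Casr, on chromosome 16 (36490585 to 36562141), encodes the receptor through which the segment reads blood calcium. It gave 4.10, 4.72 and 4.31 times the array median in mutants, against 4.24, 5.47 and 4.72 in wild type. The ranges overlapped, with the lowest value on a mutant array and the highest on a wild-type array. The difference was -0.13 ± 0.19 log2 units (limma, adjusted p = 0.804), with a 95% interval from 0.686-fold to 1.22-fold.

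The order of the arrays was compared for the 5 genes above the low-signal limit on all 6 arrays, with no test. Among mutants the lowest value was on replicate 1 for 3 genes, on replicate 2 for 2 and on replicate 3 for 0. Among wild type it was on replicate 1 for 4 genes, all but Umod, and on replicate 2 for 1. Averaged over the 7 genes after each was centred on its own mean, the arrays stood at 0.11, -0.02 and 0.35 log2 in mutant replicates 1, 2 and 3, against -0.57, -0.12 and 0.26 in wild-type replicates 1, 2 and 3. The genotypes overlapped on this average, and the 2 dimmest genes, Bsnd and Cldn19, varied most. The 3 genes whose profile over the 6 arrays lay closest to it, among 9088 candidates above the low-signal limit, were Smc2, a condensin subunit, Zfp322a and Sez6l2, with root mean square distances of 0.0525, 0.0567 and 0.0614 log2 units. None of the 3 passed the test.

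Among other genes of the segment, 1 passed in each direction. Of 49 genes in 3 further lists for the segment 37 were tested, of which 1 rose, Maged2, and 1 fell, Egf. That is 5.41% of the 37, beside 7.26% of all genes. Differences were positive for 15 of the 37 and negative for 22, beside 8518 and 6299 over all genes. The median was -0.05 log2 units, beside 0.08 over all genes. Egf encodes epidermal growth factor, which the thick ascending limb and the distal convoluted tubule release into the urine. Its values were 23.9, 30.2 and 26.0 times the array median in mutants, against 48.9, 61.5 and 51.7 in wild type. Every mutant value lay below every wild-type value. Egf fell by 1.02 ± 0.14 log2 units, or 2.02-fold (limma, adjusted p = 0.000747), and passed in 19 of 20 alternatives, not with no intensity trend in the variance (adjusted p = 0.0896).

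Maged2, whose loss in humans causes a transient antenatal form of Bartter syndrome, is known there to sustain salt cotransporters at the cell surface. Its values were 40.3, 36.5 and 39.6 times the array median in mutants, against 15.7, 21.5 and 21.0 in wild type. Every mutant value lay above every wild-type value. Maged2 rose by 1.01 ± 0.15 log2 units, or 2.02-fold (limma, adjusted p = 0.000901), and passed in 19 of 20 alternatives, not with no intensity trend in the variance (adjusted p = 0.0962).

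**Figure D2:**
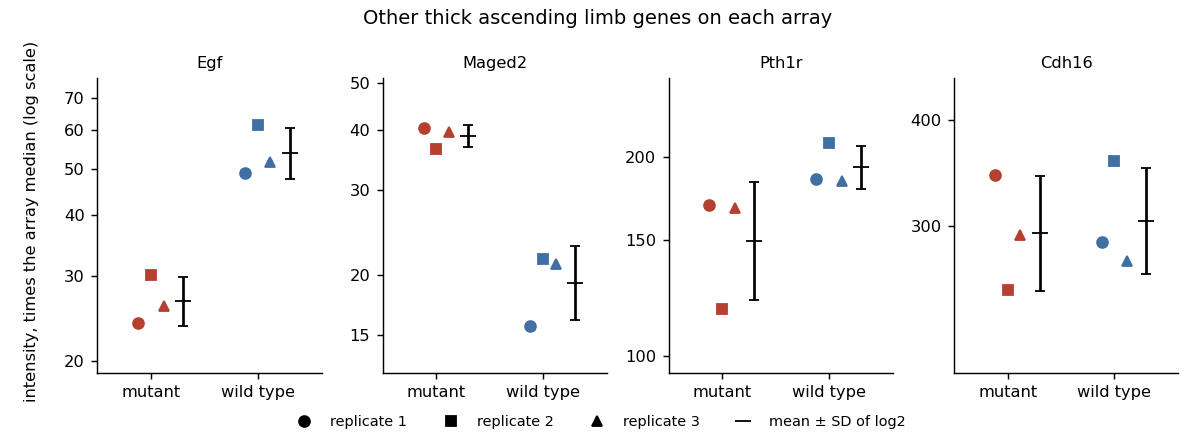
Intensity of Egf, Maged2, Pth1r and Cdh16 on every array, in multiples of the array median on a log scale, with homozygous mutants left of wild type and the mean ± SD of the log2 values (n = 3 each). Mutant arrays lie between 23.9 and 30.2 for Egf, below the wild-type range of 48.9 to 61.5, and between 36.5 and 40.3 for Maged2, above the wild-type range of 15.7 to 21.5.

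Among 11 tested transport and junction genes of the segment 0 passed (limma, with Benjamini-Hochberg adjustment), with a median of -0.11 log2 units, and 2, Cldn3 and Slc9a3, had an unadjusted p under 0.05. The shares over all genes tested were 7.26% and 20.8%. The genotypes did not overlap for 3 of the 11, Fxyd2, Kcnj16 and Cldn3, beside 26.7% of genes measured on all 6 arrays. Fxyd2, the gamma subunit of the sodium pump, differed by -0.35 ± 0.27, and Kcnj16, a basolateral potassium channel subunit, by -0.20 ± 0.15. Cldn3, a sealing claudin of distal segments and named after its values were seen, gave 22.9, 11.9 and 11.9 times the array median in mutants, against 8.08, 8.87 and 9.63 in wild type. Mutant replicate 1 was far above the others, and the difference of 0.74 ± 0.22 had an adjusted p of 0.0742 (limma) and passed in 2 of 20 alternatives. Slc9a3, the apical sodium and proton exchanger that the proximal tubule also makes, also named after its values were seen, differed by -0.33 ± 0.15 (limma, adjusted p = 0.280).

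Of 13 tested regulators, 1 passed, Maged2, which is 7.69% beside 7.26% of all genes tested, and the median was -0.01 log2 units. Pth1r, the parathyroid hormone receptor, which the proximal tubule also makes, gave 169, 118 and 167 times the array median in mutants, against 185, 210 and 184 in wild type, a difference of -0.37 ± 0.19 that did not pass (limma, adjusted p = 0.353). Adcy6, an adenylyl cyclase that makes the cyclic AMP through which hormones act on the segment, differed by -0.05 ± 0.17. Of the kinase genes upstream of the salt cotransporters, named after their values were seen, Stk39 differed by 0.42 ± 0.25 and Oxsr1 by -0.022 ± 0.16, and neither passed.

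Of 13 tested products and transcription factors, 1 passed, Egf, which is 7.69% beside 7.26% of all genes tested, and the median was -0.09 log2 units. Cdh16, the kidney cadherin, gave 345, 252 and 292 times the array median in mutants, against 288, 358 and 273 in wild type, and the groups overlapped (difference -0.05 ± 0.21). Ppp1r1a, a phosphatase inhibitor, differed by -0.28 ± 0.15. Esrrb, a nuclear receptor named after its values were seen, differed by -0.49 ± 0.18 (limma, adjusted p = 0.181). It had an unadjusted p under 0.05, as did Egf and Hpn, beside 20.8% of all genes tested (limma). Esrrb passed in 2 of 20 alternatives, quantile normalization (0.0453) and cyclic loess (0.0421). Pou3f3, a transcription factor that the segment needs to form in mice, differed by 0.23 ± 0.22. Hpn, a protease that releases uromodulin from the cell surface in mice, had no value on mutant replicate 1, and like Pou3f3 it was named after its values were seen. On the remaining arrays it gave 8.13 and 9.56 times the array median in mutants, against 8.82, 31.8 and 14.3 in wild type. Its difference of -0.85 ± 0.37 did not pass (limma, adjusted p = 0.271), but was -1.27 (adjusted p = 0.0342) without wild-type replicate 1, and it passed in 4 of 17 alternatives.

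**Figure D3:**
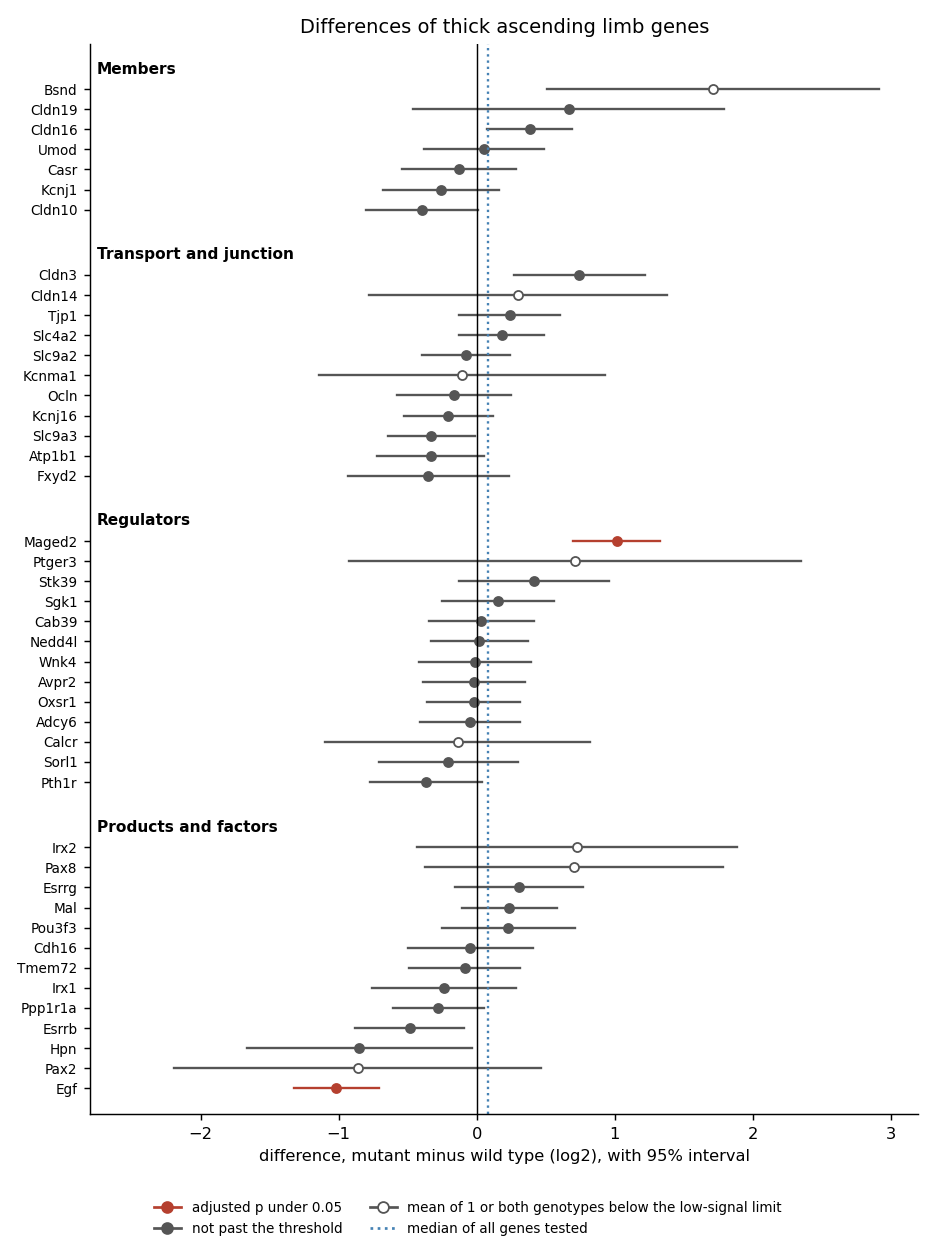
Differences of the 7 measured transport genes and of 37 other thick ascending limb genes, mutant minus wild type in log2 units, with 95% intervals of the limma fit, grouped by role, and open points where a genotype's mean lay below the low-signal limit. Maged2 at 1.01 and Egf at -1.02 are the genes past the threshold, and the intervals of Bsnd and Cldn19 are the widest among the 7.

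The segment's medians were 0.05 log2 units over the 7 genes and -0.05 over the 37 others. They stood near those of distal convoluted and connecting tubule, intercalated cell and podocyte genes. The median over all genes tested was 0.08, and differences between lists were not tested. Over all genes tested, 7.26% passed, 5.67% higher and 1.59% lower, and 20.8% had an unadjusted p under 0.05 (limma). Of 8 distal convoluted and connecting tubule genes 1 fell and 0 rose, with a median of -0.06 log2 units. That gene was Pvalb, a calcium-binding protein of the early distal convoluted tubule (-1.44 ± 0.25), which did not pass with no intensity trend (limma, adjusted p = 0.150) or with only replicates 2 and 3 (0.0572). Trpv5, the apical calcium channel of the distal tubule, was the other gene with an unadjusted p under 0.05, and its difference of 0.78 ± 0.21 did not pass (limma, adjusted p = 0.0516) but passed in 6 of 20 alternatives. Of 8 principal cell genes and 7 intercalated cell genes 0 passed, with medians of 0.22 and 0.05 (limma; unadjusted p under 0.05 in 2, Gata3 and Hsd11b2, and in 0). Of 10 proximal tubule genes 5 fell and 0 rose, with a median of -0.74, among them the organic anion transporter Slc22a8 (-1.48 ± 0.24) and the lactate transporter Slc5a12 (-1.17 ± 0.21), which had no value on mutant replicate 1. With no intensity trend none of the 5 passed (limma, adjusted p from 0.140 to 0.215), Hnf4a did not with only replicates 2 and 3 (0.0559), and Slc34a1 and Cubn did not without mutant replicate 2 (0.0558 and 0.0554) or without wild-type replicate 3 (0.0507 and 0.0712). Of 5 inner medullary and thin limb genes 0 passed (limma; unadjusted p under 0.05 in 2, Epha7 and Aqp1), with a median of -0.17. For 3 of these genes the mean of 1 or both genotypes lay below the low-signal limit.

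Most genes in the lists for fibroblasts and matrix, myeloid cells and tubular injury differed between genotypes on the same arrays. Of 6 fibroblast and matrix genes 6 rose, and their summed level was 369 to 400 times the array median in mutants and 80.6 to 120 in wild type. With no intensity trend Col1a2 and Pdgfrb did not pass (limma, adjusted p = 0.0624 and 0.0726). Of 6 myeloid genes 5 rose, with sums of 135 to 203 in mutants and 29.5 to 35.6 in wild type, while Adgre1 lay below the low-signal limit in both means. Of 5 endothelial genes 0 passed and 3, Pecam1, Emcn and Tek, had an unadjusted p under 0.05 (limma), with a median of 0.34. Of 4 podocyte genes 1 rose, Cdkn1c, which passed in 10 of 20 alternatives, and the median was 0.0026. The shares over all genes tested were 7.26% passing, 5.67% higher and 1.59% lower, and 20.8% with an unadjusted p under 0.05 (limma). Of 5 tubular injury genes 5 rose, with sums of 215 to 238 in mutants and 43.0 to 60.4 in wild type. For 3 of these 5 the mean of 1 or both genotypes lay below the low-signal limit. The lists were chosen with earlier results of these data known, so their counts are description only. The summed level of the 7 thick ascending limb genes was 320 to 395 in mutants and 355 to 439 in wild type, ranges that overlapped. Most of it came from Umod and the brighter Cldn10 probe. The 11 other transport and junction genes summed to 736 to 970 in mutants and 1029 to 1109 in wild type, without overlap. Fxyd2 alone gave 473 to 715 and 775 to 823 of these, and its difference did not pass (limma, adjusted p = 0.583). Sums overlapped for the regulators and for the products and factors, which lacked some values on mutant replicate 1. The 10 proximal tubule genes, of which Slc5a12 had no value on mutant replicate 1, summed to 257 to 295 in mutants and 443 to 475 in wild type. The part of these other cells in the differences of Egf, Maged2 or the transport genes was not tested.

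**Figure D4:**
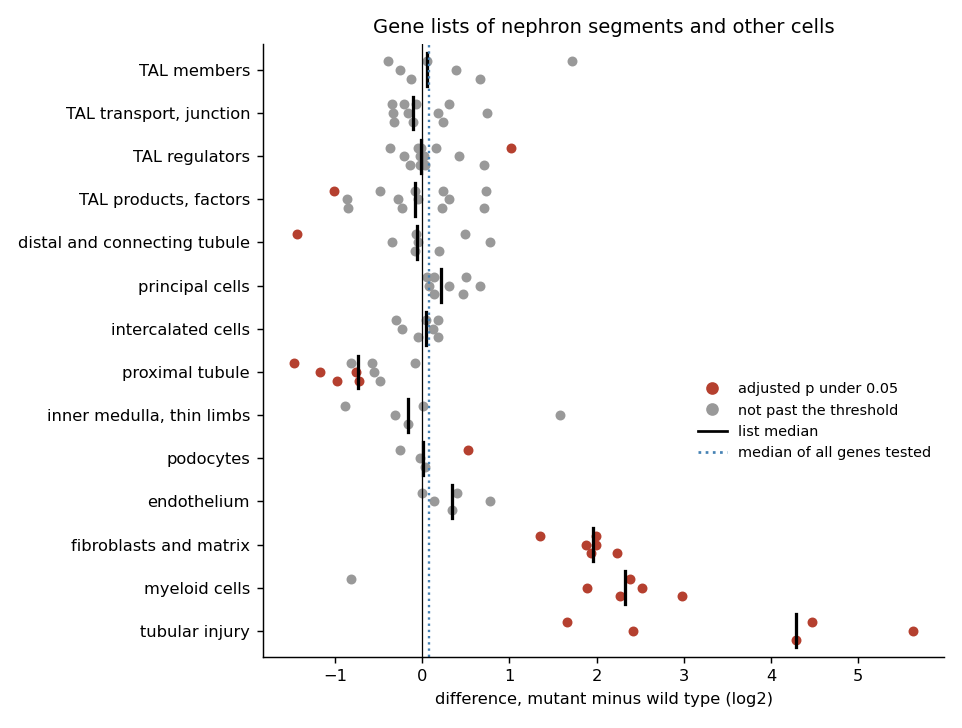
Differences of single genes, mutant minus wild type in log2 units, in lists for the thick ascending limb (TAL), other nephron segments and other cells, with the list medians as black bars and the median of all genes tested as a dotted line. The TAL medians lie between -0.11 and 0.05, the proximal tubule median at -0.74 and the matrix median at 1.96.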

How the data were processed

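Kidney RNA of 3 homozygous mutant and 3 wild-type mice was labelled with biotin and hybridised to CodeLink single-colour arrays, per the labels' protocols. The deposited values are linear intensities with array medians of 0.994 to 0.997, of which 2.66% to 3.46% per array are at or below 0. The sources used here do not state the background and scaling steps behind them.

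From the deposited intensities, log2 was taken after each array had been divided by its median. Non-positive intensities counted as missing, and a floor of 0.290, the 10th percentile of the positive ones, was applied before the log. Of 34937 probes, 34445 had at least 2 values per genotype, and 25834 were tested after the dimmest 25% were left out. Symbols came from the platform annotation, and 7 measured genes matched RefSeq by gene ID. The genotype difference was tested two-sided in limma 3.58.1 (R 4.3.3, lmFit, then eBayes with an intensity trend), with adjustment over 25834 probes by Benjamini-Hochberg and a threshold of 0.05. The code was tested on simulated data. The low-signal limit is the mode of the linear values plus 3 times the spread of values below it, set after values were seen.

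The genes and lists were chosen with earlier results of these data known. Named by rule were the 8 genes, up to 6 genes past the threshold and the 2 of highest level per further thick ascending limb list, up to 2 per other list, and 3 genes of like profile. The text marks some genes as named after their values were seen. Other genes named for an unadjusted p, for a low signal or for their result in an alternative were also added after values were seen. Alternatives covered scaling, floor, filters, variance model, a replicate block and leaving out arrays. A search of promoter sequences is not reported here.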

Additional observations from a re-analysis of the deposited data

How the results depend on the processing

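The count of 0 transport genes past the threshold held in 20 of 21 alternatives, and was 0 to 1 with arrays left out in turn, the 1 being Bsnd without wild-type replicate 3 (2.29, limma, adjusted p = 0.0357). The differences of Kcnj1, Cldn10, Cldn16 and Casr kept their sign in all 20 or 21 alternatives run for them. Umod differed by -0.029 with array weights and by -0.094 with only replicates 2 and 3, and ran from -0.094 to 0.23 with arrays left out. With arrays left out, Cldn19 ran from -0.069, without wild-type replicate 1, to 1.20, Bsnd from 1.43 to 2.29, and the second Cldn10 probe from -0.24 to 0.073. The cause was not tested. Bsnd, with 2 wild-type values at the floor, was fitted at 1.71, at 1.08 with a pseudocount of 0.5 in place of the floor and at 1.98 with no floor, and was not tested with the dimmest 50% left out.

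Over all 25834 probes 1392 passed, 76.4% of them higher in mutants. With no intensity trend 191 passed (179 higher and 12 lower), and 905 (630 higher) without replicate 1 of either genotype, that is, only replicates 2 and 3. Lower probes numbered 551 after quantile normalization and 554 after cyclic loess, against 329, and the share higher was then 61.5% and 62.9%. With arrays left out in turn, 743 to 1230 passed, 589 to 1026 higher and 154 to 325 lower. The lowest counts were without mutant replicate 2.

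Of the 37 other thick ascending limb genes, 0 passed with no intensity trend (0 higher and 0 lower). With the replicate block 4 passed (2 higher and 2 lower), with Cldn3 (limma, adjusted p = 0.0314) and Hpn (0.00608) beside Maged2 and Egf. The same counts, 4, 2 and 2, came from a fit with replicate 1 against replicates 2 and 3 as a term, which was chosen after seeing the data. With only replicates 2 and 3, 4 passed, 3 of them lower. After quantile normalization and after cyclic loess 2 were lower, Egf and Esrrb. With arrays left out 2 to 4 passed, 1 higher and 1 to 3 lower, and Atp1b1 and Hpn were the further genes without wild-type replicate 1. With the replicate block, 0 transport genes and 1856 probes passed. The deviations of same-numbered arrays from their group means correlated at 0.07, 0.02 and 0.07, so the numbers were not taken as pairs. Each array correlated best with its own number in the other genotype, a hint from the data and not the design. Bsnd and wild-type replicate 1 of Cldn19 lay near background, which limits what their values can show.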
